A study of Homo sapiens with 10 samples.

Results

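The HOX clusters are 4 groups of homeobox genes on chromosomes 7, 17, 12 and 2. Their members were taken as the protein-coding symbols HOXA, HOXB, HOXC or HOXD followed by a number, and 39 of the 20136 coding symbols of GENCODE release 44 on GRCh37 (hg19) met this rule. The HOXA cluster holds 11 of them, HOXB 10, HOXC 9 and HOXD 9. They are described with chromatin immunoprecipitation and sequencing (ChIP-seq) of HCT116, an established colorectal carcinoma line of human origin, from a series of 10 libraries with 1 library per antibody and so without replicates. Peak lists of 5 libraries were used. The antibodies were N-20 against total Pol II, C-20 against Cdk9 (the kinase of the elongation factor P-TEFb), and antibodies to KAP1 (TRIM28, a co-regulator on chromatin) and to Larp7 and Hexim1, both parts of the 7SK snRNP, a small nuclear RNA and protein complex that sequesters P-TEFb. Ser5P Pol II, the histone marks H3K4me3, H3K4me1 and H3K27ac, and the input were not analysed here. The labels name no treatment and no genetic change in any library, and they call the cells endothelial, although HCT116 is of epithelial origin.

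HOX genes encode transcription factors that give cells of the body axis and limbs their regional identity, and their order on the chromosome follows the order of their expression domains along the axis. Genes with the same number in different clusters are paralogues, and all genes of a cluster are transcribed in the same direction, with the high-numbered (posterior) genes at the 5′ end. Polycomb complexes keep the clusters silent where they are not used, trithorax complexes keep them active, and many long noncoding RNAs (lncRNAs) run antisense to the coding genes. The CDX genes, relatives of the HOX genes, are known for setting intestinal identity. A promoter below reaches 1 kb to either side of the annotated 5′ end, and a factor was counted there when one of its deposited peaks overlapped this window. The fold is the authors' own enrichment of a peak over its background. It is read only within 1 list, and it is the highest among the peaks that touch the promoter.

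The sequences printed here are short stretches outside every annotated exon, each with its CpG pairs in capitals, on GRCh37. They come from the peaks of HOXB9 and HOXC9, members with high Pol II folds, from the Pol II peak beside the HOXB3 and HOXB6 starts, whose promoters lack the other 4 factors, and from both edges of the longest Pol II-free stretch in any cluster. The edge windows are centred on the Pol II summit. The others are shifted from it in genome coordinates, by -357 bp at HOXB9, 270 bp at HOXC9 and 135 bp at HOXB3 and HOXB6. Their CpG counts are thus not from like positions in a peak. The HOXB9 window is chr17:46702994-46703114 on the minus strand, within introns of HOXB9 and HOXB7, 8 CpG pairs, under peaks of all 5 factors.
HOXB9: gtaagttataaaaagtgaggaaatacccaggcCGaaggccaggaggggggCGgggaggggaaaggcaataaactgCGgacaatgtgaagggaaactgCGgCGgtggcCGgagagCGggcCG
The HOXC9 window is chr12:54389694-54389814 on the plus strand, in introns of HOXC9, HOXC6 and the antisense HOXC-AS2, 1 CpG pair, under peaks of all 5 factors.
HOXC9: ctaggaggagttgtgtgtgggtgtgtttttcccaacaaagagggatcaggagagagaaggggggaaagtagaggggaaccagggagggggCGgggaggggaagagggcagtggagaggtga
The window from the peak of HOXB3 and HOXB6 is chr17:46681495-46681615 on the minus strand, in introns of HOXB3, HOXB6 and HOXB-AS3, 2 CpG pairs, under a peak of 1 factor, Pol II.
HOXB3 and HOXB6: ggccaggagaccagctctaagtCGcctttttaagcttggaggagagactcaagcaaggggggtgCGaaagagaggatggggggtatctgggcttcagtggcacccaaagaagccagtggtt
The windows in the peaks at the edges of the Pol II-free stretch between HOXB7 and HOXB13 are chr17:46755848-46755968, in an intron of the lncRNA LINC02086, and chr17:46796357-46796477, in no annotated gene, both given on the plus strand. They hold 13 and 16 CpG pairs, and peaks of all 5 factors lie over each.
low edge: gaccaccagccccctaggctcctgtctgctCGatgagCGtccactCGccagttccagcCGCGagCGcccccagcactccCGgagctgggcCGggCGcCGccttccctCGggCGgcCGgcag
high edge: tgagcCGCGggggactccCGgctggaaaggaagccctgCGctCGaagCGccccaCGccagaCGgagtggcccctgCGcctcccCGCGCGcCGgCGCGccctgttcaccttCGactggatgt

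Peaks of all 5 factors lay at 34 of 39 HOX promoters (87.2%, exact 95% binomial interval 72.6 to 95.7, which covers counting error only), against 59.7% of all coding promoters. Pol II lay at 38 HOX promoters, where the share of all coding promoters was 70.5%. The 7SK proteins Hexim1 and Larp7 lay at 37 each, with shares of 78.7% and 75.1% among all coding promoters. Cdk9 lay at 36 (69.1% of all) and KAP1 at 35 (64.6% of all). No HOX promoter was without any factor, whereas 18.3% of all coding promoters were. Neighbouring members share peaks, so the 39 promoters are not 39 independent observations.

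The excess over other promoters depended on how strong a peak had to be, here measured by −log10 q, the false discovery rate of a peak on a negative log scale. The lists differ in this: of the 92939 peaks listed for Pol II 75.4% had a value of 5 or more, but of the 120113 listed for Cdk9 only 4.42% did. The read depth behind the lists is not known. With peaks of −log10 q of at least 5, all 5 factors lay at 4 HOX promoters (HOXA11, HOXB2, HOXB7 and HOXB9), or 10.3%, near the 9.16% of all coding promoters. KAP1 then lay at 10 (25.6%), near its general share of 24.4%, and Cdk9 at 8 (20.5%), where the general share was 14.9%. Pol II and Hexim1 lay at 36 HOX promoters each, with general shares of 67.9% and 67.5%. Larp7 lay at 31, where the general share was 47.2%. HOXC6 alone had no factor at this level, where 26.5% of all coding promoters had none. When each list was limited to its 20000 peaks of highest −log10 p, Pol II lay at 23 HOX promoters (general share 53.9%), Larp7 at 26 (30.6%), Hexim1 at 25 (52.9%), Cdk9 at 25 (40.4%) and KAP1 at 24 (41.4%). All 5 then lay at 11 (general share 16.1%) and none at 4 (32.7%).

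**Figure D1:**
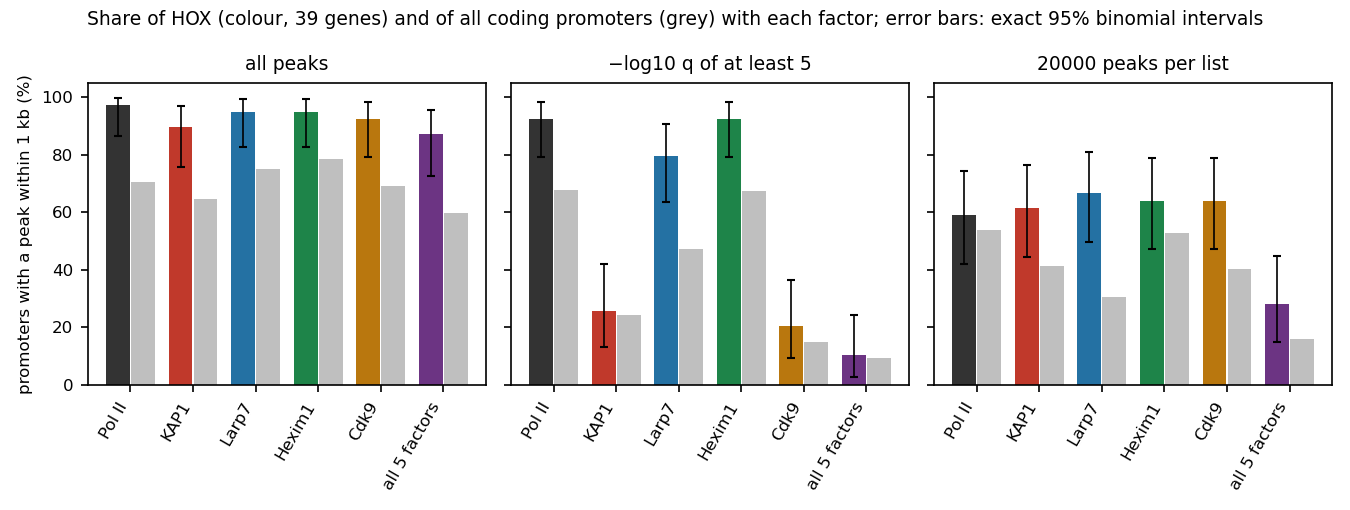
The percentage of promoters with a peak within 1 kb is on the vertical axis, for each factor and for all 5 together, in coloured bars for the 39 HOX genes (error bars are exact 95% binomial intervals) and grey bars for all 20136 coding genes. With all peaks the HOX bar for all 5 factors is 87.2% against 59.7%, and with −log10 q of at least 5 the KAP1 bar and the grey bar are nearly level.

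Pol II folds at the HOX promoters were low for promoters with a peak. The median over the 38 occupied HOX promoters was 17.0, against 39.4 over all 14198 coding promoters with a Pol II peak, and values ran from 4.21 at HOXD12 to 92.3 at HOXB9. When all those promoters were ranked by Pol II fold and cut into 5 equal bins, 13 HOX members fell in the lowest bin, 15 in the next, then 6, 3 and 1. All 5 factors lay at 12 of the 13 in the lowest bin, against 74.3% of all promoters there, and at 13 of 15 in the next, against 71.5%. In the upper bins they lay at 5 of 6 (87.1% of all), 3 of 3 (93.4% of all) and 1 of 1 (97.0% of all).

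Folds of the other factors stayed near the general level. The median KAP1 fold at HOX promoters was 4.88, where all promoters with KAP1 had 4.83, and members ran only from 3.65 at HOXC8 to 6.63 at HOXB4. Hexim1 had a median of 6.80 (6.91 over all), Larp7 5.26 (4.80 over all) and Cdk9 4.65 (4.57 over all). The peaks themselves were wider than elsewhere for these 4 factors and narrower for Pol II. The median width at HOX promoters was 1957 bp for Hexim1 (1369 over all), 1859 for Larp7 (1133 over all), 1455 for Cdk9 (910 over all) and 1150 for KAP1 (828 over all), but 528 for Pol II (779 over all). As a share of the promoter window, Hexim1 peaks covered a median of 69.4% at HOX genes and 57.6% over all, and Pol II peaks 33.4% and 42.5%.

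**Figure D2:**
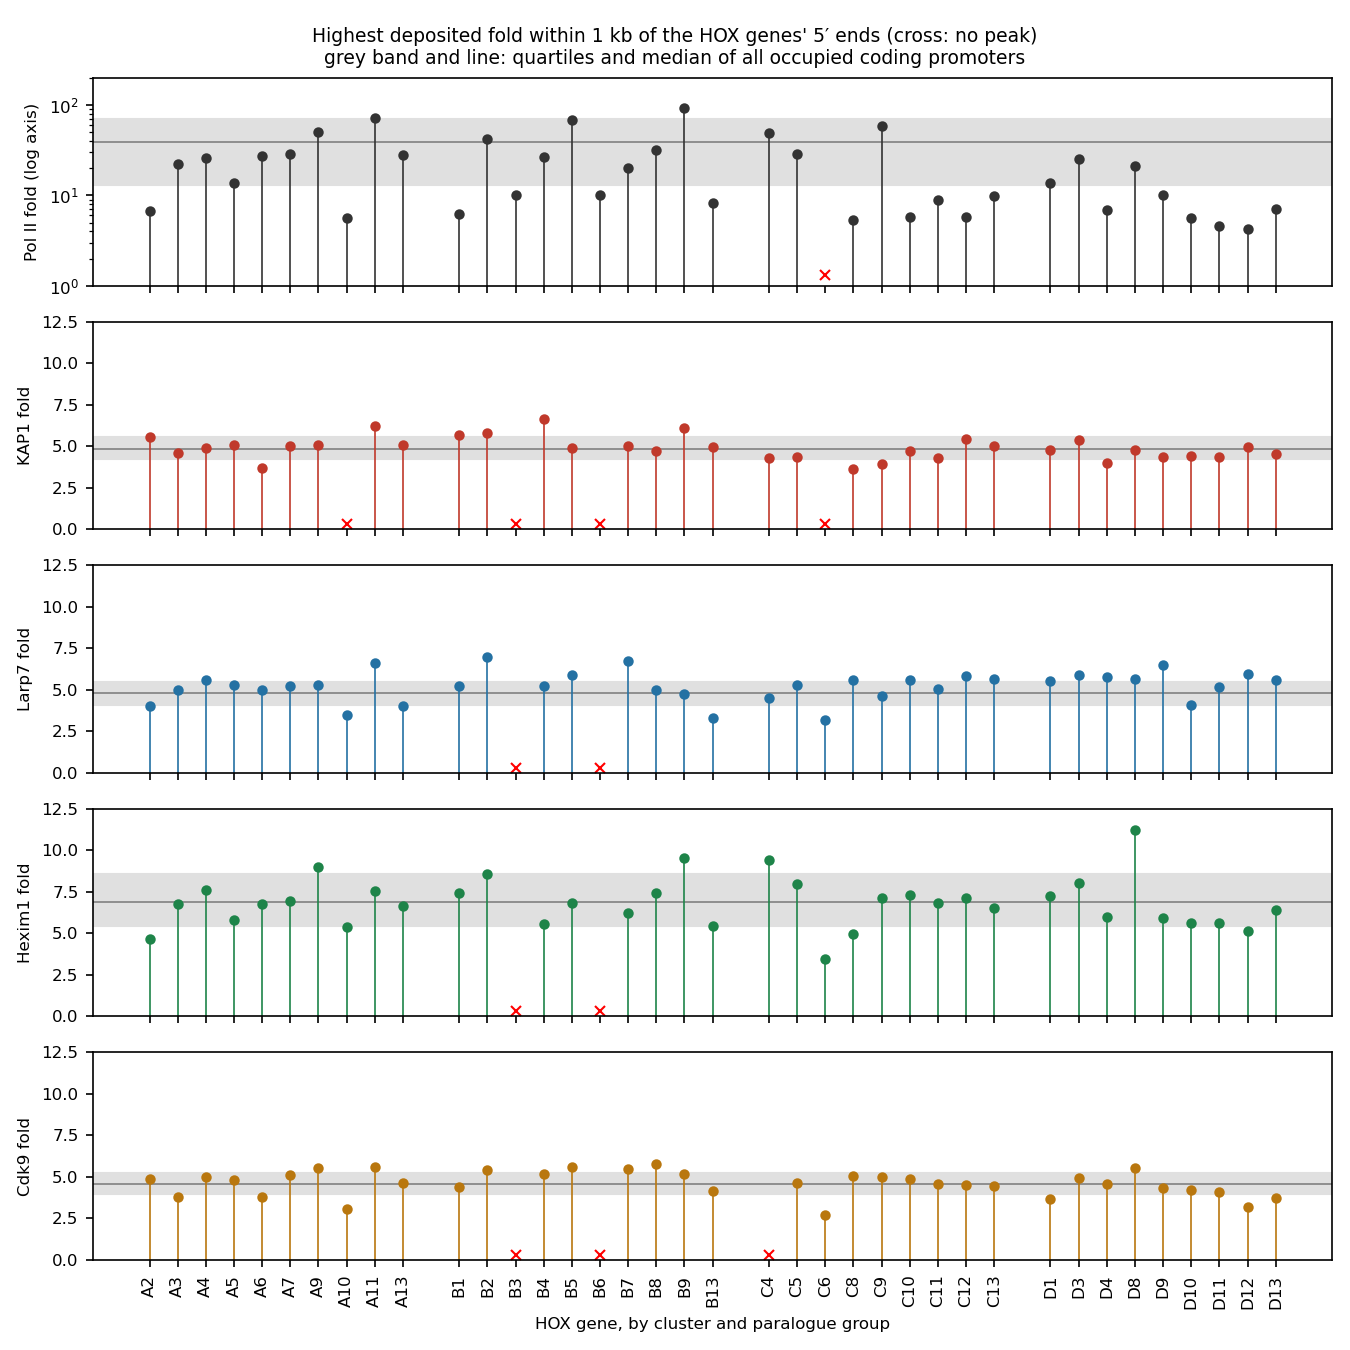
Each point is the highest deposited fold among the peaks that touch the promoter window of 1 HOX gene named in the text. A peak may have its summit outside that window. Members are ordered by cluster and paralogue group, the Pol II axis is on a log scale and crosses mark no peak. The grey line and band are the median and quartiles of all coding promoters with that factor, and most Pol II points lie below the line at 39.4.

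The median Pol II fold at the annotated 5′ ends was lowest at the posterior genes, but at canonical transcript starts the anterior and posterior medians were close. Here the anterior genes are paralogue groups 1 to 3, the central ones 4 to 8 and the posterior ones 9 to 13. All 5 factors lay at 7 of 8 anterior promoters (exact 95% binomial interval 47.3 to 99.7%), 12 of 15 central ones (51.9 to 95.7%) and 15 of 16 posterior ones (69.8 to 99.8%), intervals that overlap. With peaks of −log10 q of at least 5 these counts were 1 anterior, 1 central and 2 posterior. The median Pol II fold was 17.9 at anterior, 26.4 at central and 8.61 at posterior genes, and the ranges overlapped as well (6.27 to 42.6, 5.39 to 68.6 and 4.21 to 92.3). At canonical starts the medians were 11.1, 21.4 and 9.97. Among the posterior genes, at the 5′ ends, the median was 5.58 in HOXD and 8.96 in HOXC, but 39.4 in HOXA and 50.3 over the 2 posterior genes of HOXB. Each cluster held low posterior values, with HOXA10 at 5.61 and HOXB13 at 8.26. KAP1 folds lay closer together, with medians of 5.35, 4.77 and 4.95 from anterior to posterior. By paralogue group, group 9 had the highest median Pol II fold, 54.9, with 92.3 at HOXB9, 58.9 at HOXC9 and 50.8 at HOXA9, and HOXD9 stood apart at 10.0. Groups 10 and 12 were low, with medians of 5.61 and 4.96. Group 12 has members in HOXC and HOXD alone.

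The HOXA cluster lies on the minus strand of chromosome 7, and 10 of its 11 promoters had all 5 factors. The anterior members pattern the hindbrain. HOXA2 had a Pol II fold of 6.69, with Hexim1 at 4.68, Larp7 at 4.02, Cdk9 at 4.86 and KAP1 at 5.53. HOXA3 had a Pol II fold of 22.2, with Hexim1 at 6.75, Larp7 at 4.99, Cdk9 at 3.82 and KAP1 at 4.62. HOXA2 was thus lower than HOXA3 for Pol II and higher for KAP1. The central members act in the neck and trunk. HOXA4 had a Pol II fold of 25.8, with Hexim1 at 7.63, Larp7 at 5.61, Cdk9 at 5.01 and KAP1 at 4.90. HOXA5, a gene of lung development, had a Pol II fold of 13.7, with Hexim1 at 5.80, Larp7 at 5.28, Cdk9 at 4.82 and KAP1 at 5.07. HOXA5 was the lowest of the central members for Pol II. HOXA6 had a Pol II fold of 27.6, with Hexim1 at 6.75, Larp7 at 4.99, Cdk9 at 3.82 and KAP1 at 3.71. HOXA7 had a Pol II fold of 28.4, with Hexim1 at 6.92, Larp7 at 5.21, Cdk9 at 5.12 and KAP1 at 5.00. HOXA6 and HOXA3 have 5′ ends 1980 bp apart and share their Larp7, Hexim1 and Cdk9 peaks, so they are not separate observations there.

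At the annotated 5′ ends the posterior HOXA genes held the highest and the lowest Pol II folds of the cluster. HOXA9, a gene known in leukaemia, had a Pol II fold of 50.8, with Hexim1 at 9.02, Larp7 at 5.26, Cdk9 at 5.51 and KAP1 at 5.05. HOXA11, a limb and uterus gene, had a Pol II fold of 72.2, with Hexim1 at 7.53, Larp7 at 6.61, Cdk9 at 5.61 and KAP1 at 6.21. HOXA13, a gene of the hindgut and digits, had a Pol II fold of 28.0, with Hexim1 at 6.64, Larp7 at 4.05, Cdk9 at 4.66 and KAP1 at 5.08. At these 5′ ends HOXA11 led the cluster for each factor but Hexim1. At canonical starts HOXA9 was above HOXA11 for Pol II (95.2 against 72.2) and for KAP1 (6.26 against 6.21). HOXA10 was the exception among the posterior 5′ ends, with Pol II at 5.61, Hexim1 at 5.37, Larp7 at 3.49 and Cdk9 at 3.04. Its nearest KAP1 peak was 4086 bp from the 5′ end. At its canonical transcript start, 5941 bp away, all 5 factors were present and the Pol II fold was 50.8, from the peak that also touches the HOXA9 5′ end.

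The HOXB cluster, chr17:46605888-46806112 on the minus strand, is the longest of the 4, and 8 of its 10 promoters had all 5 factors. HOXB1, a hindbrain gene, had a Pol II fold of 6.27, with Hexim1 at 7.44, Larp7 at 5.24, Cdk9 at 4.40 and KAP1 at 5.69. HOXB2 had a Pol II fold of 42.6, with Hexim1 at 8.56, Larp7 at 6.96, Cdk9 at 5.41 and KAP1 at 5.79. HOXB4, a gene of blood stem cells, had a Pol II fold of 27.0, with Hexim1 at 5.53, Larp7 at 5.23, Cdk9 at 5.14 and KAP1 at 6.63. HOXB4 had the highest KAP1 fold among the 39 genes, and HOXB2 the highest Larp7 fold. HOXB5 had a Pol II fold of 68.6, with Hexim1 at 6.81, Larp7 at 5.87, Cdk9 at 5.61 and KAP1 at 4.88. HOXB7 had a Pol II fold of 20.2, with Hexim1 at 6.22, Larp7 at 6.74, Cdk9 at 5.50 and KAP1 at 5.02. At its canonical start, 22555 bp away, the Pol II fold was 46.2. HOXB8 had a Pol II fold of 32.0, with Hexim1 at 7.40, Larp7 at 4.96, Cdk9 at 5.79 and KAP1 at 4.73. The central genes were thus all above the HOX median of 17.0 for Pol II, apart from HOXB6. HOXB9 had a Pol II fold of 92.3, with Hexim1 at 9.56, Larp7 at 4.72, Cdk9 at 5.20 and KAP1 at 6.07. HOXB13, a gene of the prostate and distal gut, had a Pol II fold of 8.26, with Hexim1 at 5.41, Larp7 at 3.29, Cdk9 at 4.17 and KAP1 at 4.95. Of these posterior members HOXB9 had the highest Pol II fold of the cluster and HOXB13 the second lowest. Strong peaks of KAP1 and Cdk9, but not of Larp7 and Hexim1, gathered in this cluster. It held 6 of the 10 HOX promoters with a KAP1 peak of −log10 q of at least 5 (HOXB1, HOXB2, HOXB4, HOXB7, HOXB9 and HOXB13). It also held 5 of the 8 with such a Cdk9 peak (HOXB2, HOXB5, HOXB7, HOXB8 and HOXB9). Such Larp7 peaks lay at 7 and Hexim1 peaks at 8 of its 10 promoters, the lowest shares of the 4 clusters. Such Pol II peaks lay at all HOXB and all HOXA promoters.

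HOXB3 and HOXB6 formed the gap of the cluster. Their 5′ ends are 80 bp apart, and both were touched by the same Pol II peak, chr17:46681257-46681765, with a fold of 10.0. No peak of KAP1, Larp7, Hexim1 or Cdk9 reached either window. The nearest KAP1 peak lay 1183 bp from the HOXB3 start and 1103 bp from that of HOXB6, the nearest Larp7 peak 1166 and 1086 bp, the nearest Hexim1 peak 1164 and 1084 bp, and the nearest Cdk9 peak 2453 and 2533 bp. The canonical start of HOXB3, 14671 bp away, also had Pol II alone, with a fold of 8.45, while 4 of its 12 annotated starts had all 5 factors. The GC content of the window was 51.3% at HOXB3 and 50.8% at HOXB6, and the CpG observed over expected was 0.400 and 0.383.

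The HOXC cluster, chr12:54332615-54449814, lies on the plus strand, and 7 of its 9 promoters had all 5 factors. HOXC12 had the highest KAP1 fold of the cluster. This posterior gene had a Pol II fold of 5.72, with Hexim1 at 7.11, Larp7 at 5.84, Cdk9 at 4.53 and KAP1 at 5.41. Pol II was at 58.9 at HOXC9, 49.3 at HOXC4 and 29.0 at HOXC5, and between 5.39 and 9.91 at HOXC8, HOXC10, HOXC11, HOXC12 and HOXC13. No HOXC member lay between those sets, and the low set holds each posterior member but HOXC9. At its canonical start, 36904 bp away, HOXC4 had a Pol II fold of 6.99, within the low range. At its 5′ end HOXC4 lacked Cdk9, whose nearest peak was 1108 bp away, but at its canonical start the Cdk9 fold was 6.93. HOXC6 was the HOX promoter without Pol II: its annotated 5′ end had Larp7 at 3.15, Hexim1 at 3.48 and Cdk9 at 2.68, and the nearest peaks of Pol II and KAP1 were 3448 and 3376 bp away. Its canonical start, 37816 bp downstream, had Pol II at 5.80, Larp7 at 6.04, Hexim1 at 6.28 and Cdk9 at 4.68, again without KAP1.

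The HOXD cluster, chr2:176957449-177055635, lies on the plus strand, and all 9 promoters had all 5 factors. At the annotated 5′ ends HOXD3 had the highest Pol II and KAP1 folds of the cluster. This anterior gene had a Pol II fold of 25.0, with Hexim1 at 8.00, Larp7 at 5.87, Cdk9 at 4.94 and KAP1 at 5.35. At its canonical start, 20695 bp away, its Pol II fold was 6.33, below those at the canonical starts of all other HOXD members but HOXD10 and HOXD12. HOXD8 followed for Pol II at 21.4 and had the highest Hexim1 fold of all members, 11.2. The limb genes were low for Pol II, at 5.58 for HOXD10, 4.60 for HOXD11, 4.21 for HOXD12 and 7.10 for HOXD13, but the canonical start of HOXD11, 3064 bp from its 5′ end, had 17.9. With canonical transcript starts in place of the 5′ ends, all 5 factors lay at 36 of 39 members, and the members that lacked a factor were HOXB3, HOXB6 and HOXC6.

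Along the clusters, peaks covered more DNA than in the genome as a whole. Pol II peaks covered 15.7% of the 4 clusters and 1.35% of the genome, a ratio of 11.6. KAP1 had the highest ratio, 11.9, with 17.6% of the clusters covered and 1.48% of the genome. For Cdk9 it was 8.13 (20.7% and 2.54%), for Larp7 6.17 (29.2% and 4.73%) and for Hexim1 5.61 (33.8% and 6.02%). HOXA had the highest covered share in each of the 5 lists, 23.7% for Pol II. The genome includes long stretches without genes, so these ratios do not compare the clusters with other gene-dense DNA.

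Occupied parts were formed by joining peaks of 1 list that lay within 5 kb of each other. In HOXA the main Pol II part was chr7:27179008-27232997, 54.0 kb with 7 starts from HOXA5 to HOXA11, and the Larp7 and Cdk9 parts had nearly the same limits (54.1 kb each). The Pol II part kept its limits with peaks of −log10 q of at least 5, but the longest HOXA part was 27.3 kb for Larp7, 5.33 kb for KAP1 and 1.70 kb for Cdk9. Hexim1 ran on to HOXA13 (66.4 kb, 8 starts), but this rests on the 5 kb limit. The gap before HOXA13 was just under 5 kb for Hexim1 and just over it for Larp7, 5.56 kb for Pol II and 5.72 kb for Cdk9. KAP1 stopped at 27215794 and began again at 27224038, a gap of 8.24 kb that holds the HOXA10 5′ end. HOXA4 formed a part of its own of 1.19 to 1.38 kb in each list. In HOXB the Pol II part chr17:46653526-46725003 joined 7 starts, from HOXB4 to HOXB7, over 71.5 kb, and 4 KAP1 parts lay along the same interval. Over the whole cluster Pol II had 8 parts and KAP1 13.

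**Figure D3:**
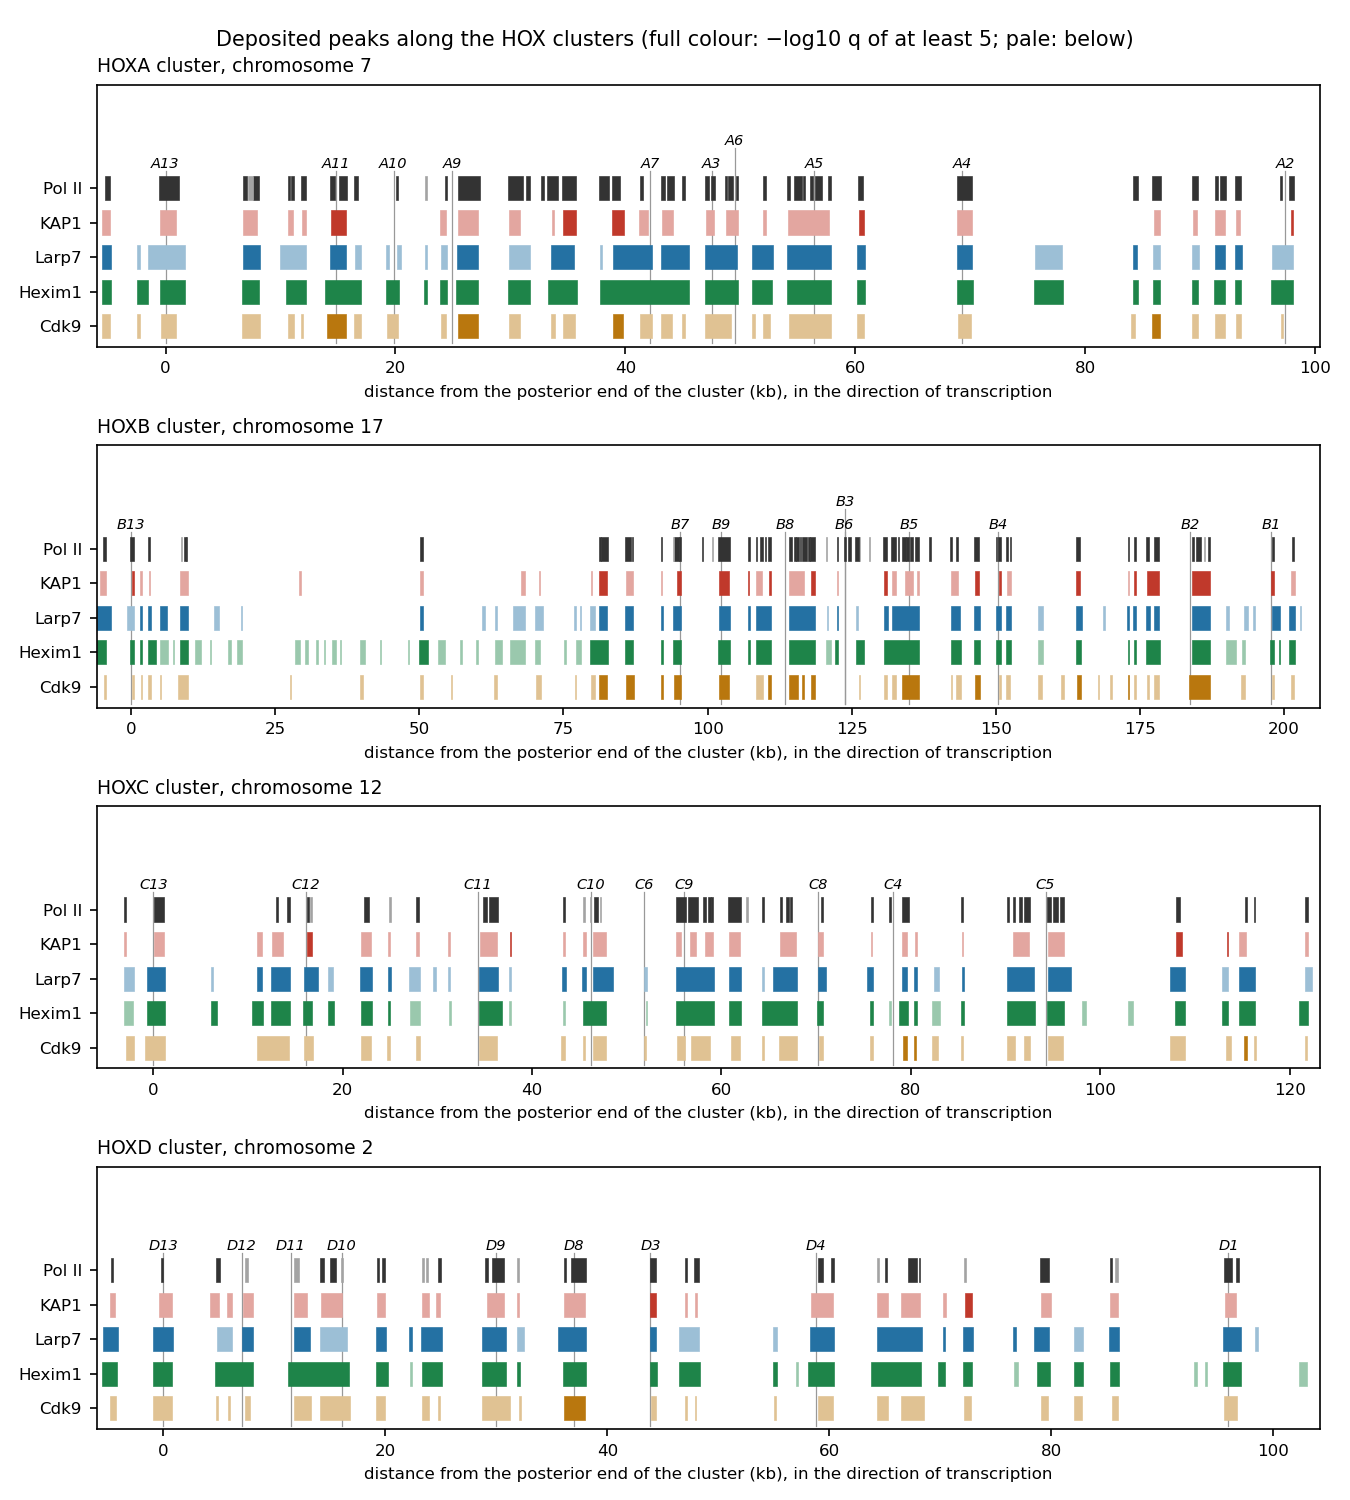
Horizontal bars are the deposited peaks of each factor along each cluster, in kb from its posterior end in the direction of transcription, and grey lines mark the 5′ ends of the HOX genes named in the text. The HOXA track is drawn to just past HOXA2. Full colour is a −log10 q of at least 5, which few KAP1 and Cdk9 peaks reach, and the HOXB track shows 1 Pol II peak, near 50 kb, between the stretches of 40.3 and 30.5 kb without Pol II.

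In the HOXD cluster the 5 lists gave nearly the same posterior part, from HOXD13 to HOXD8, which for Pol II was chr2:176952731-176995531 and measured between 42.8 and 43.6 kb over the lists. Only Hexim1 kept this part, at 43.6 kb, with peaks of −log10 q of at least 5. Pol II and Larp7 each broke into 3 parts there, Cdk9 had 1 of 1.91 kb at HOXD8, and KAP1 had none. HOXC was broken up, with 11 Pol II parts and 9 KAP1 parts but 2 Hexim1 parts. With peaks of −log10 q of at least 5 it had 11 Pol II, 3 KAP1 and 5 Hexim1 parts. The 2 Hexim1 parts also rest on a joined gap of 4.98 kb between the HOXC8 and HOXC4 starts, where Pol II and KAP1 gaps were just over 5 kb. The longest stretch without Pol II in any cluster was chr17:46756063-46796331, 40.3 kb between HOXB7 and HOXB13, with no HOX start inside. The CpG-rich sites printed above lie in the peaks at its edges. At the low edge Pol II had a fold of 11.7, Hexim1 7.77, Larp7 6.91, Cdk9 5.36 and KAP1 4.42. At the high edge Pol II had 7.72, Hexim1 7.42, Larp7 6.32, Cdk9 4.90 and KAP1 4.43. Hexim1 peaks lay within it, and the longest run without one in the whole HOXB cluster was 9.07 kb. None of those inside had a −log10 q of 5 or more, and with such peaks alone the longest run without Hexim1 was 40.2 kb, chr17:46756107-46796257, while the Pol II-free stretch kept its limits. The next HOXB stretch without Pol II was 30.5 kb, chr17:46725004-46755479, on the other side of the low edge.

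Of 35 neighbouring pairs of members, 2 differed in Pol II, 6 in KAP1, 4 in Cdk9, 2 in Larp7 and 2 in Hexim1. Each factor lay at 35 to 38 of the 39 HOX promoters, so most pairs had to be alike in any order. These counts therefore do not show that neighbours resemble each other. The unlike pairs involve HOXA10, HOXB3, HOXB6, HOXC6 and HOXC4, the members that lack a factor. At HOXC4 the unlike state rests on the window edge. With peaks of −log10 q of at least 5 the unlike pairs were 12 for Cdk9, 12 for Larp7, 10 for KAP1, 4 for Hexim1 and 4 for Pol II.

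Pol II summits lay away from the annotated starts more often at HOX promoters than elsewhere: 12 of 38 (31.6%) lay within 250 bp, against 60.2% of all coding promoters with Pol II. The median distance was 381 bp against 178 bp, and 29 of 38 summits (76.3%) lay downstream of the start, near the 74.6% of all coding promoters with Pol II. Some folds belong to peaks with a summit beyond 1 kb, as at HOXB2 (1715 bp), HOXA9 (1548 bp), HOXA7 (1132 bp) and HOXC4 (1074 bp). The canonical start of HOXA9, 9643 bp from its 5′ end, had a Pol II fold of 95.2, higher than at its 5′ end.

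Among lncRNAs, 21 in or beside the clusters run antisense to HOX genes, and 19 of them (90.5%, exact 95% binomial interval 69.6 to 98.8) had all 5 factors, against 25.8% of all 18702 lncRNA promoters. Pol II lay at 20, against 32.7%. High occupancy was not particular to the antisense strand: of the 9 sense lncRNAs in or beside the clusters, 7 (77.8%) had all 5 factors. With peaks of −log10 q of at least 5, all 5 lay at 3 of the 21, against 2.90% of all lncRNA promoters, and with 20000 peaks per list at 5, against 5.45%. Of the 8 whose start is within 1 kb of a HOX start, where the windows share peaks, 8 had all 5 factors, and of the 13 farther away 11 did. Of these 13, 5 shared a peak with the window at a HOX 5′ end or canonical start (HOTTIP, HOTAIR, HOXB-AS1, HOXC-AS1 and HOXC-AS2), so they are not separate observations. HOXC-AS1, whose start is 5115 bp from the 5′ end of HOXC9 but 151 bp from its canonical start, had a Pol II fold of 83.3, from the peak that HOXC9 has there. HOXA11-AS, 725 bp from HOXA11 and also on a shared peak, had 72.2. The Pol II fold was 58.9 at HOXC-AS2, 42.6 at HOXB-AS1 and 34.1 at HOXA10-AS. These lncRNAs lie in 3 of the clusters, next to or within HOX genes. The Pol II fold of HOTTIP, a lncRNA at the HOXA13 end known for trithorax recruitment, was 28.0, and that of HOTAIR, known for Polycomb binding, 20.3. LINC02086, which starts 13351 bp from HOXB7, had a Pol II fold of 48.6, with Hexim1 at 9.05, Cdk9 at 5.91, KAP1 at 5.76 and Larp7 at 4.55. The sense lncRNA LINC03057, which starts 13451 bp from HOXB7, had the same 5 folds, so the peaks of these lncRNAs cannot be told apart. HAGLR at HOXD1 had a Pol II fold of 13.7. HOXB-AS4 had Pol II alone, with a fold of 5.22, and HOXB-AS2, whose start is 12153 bp from HOXB2, had no factor, as had 46.2% of all lncRNA promoters. ChIP peaks carry no strand, so at a start shared by a HOX gene and an antisense lncRNA the peaks of the partners cannot be told apart.

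The windows at the 5′ ends of the miRNA genes of the clusters were occupied in differing degree. MIR196B, in the HOXA cluster, and MIR196A1, near HOXB7, had all 5 factors, with Pol II folds of 34.1 and 19.3, whereas MIR196A2, 1114 bp from the HOXC6 5′ end, had Larp7, Hexim1 and Cdk9 alone. MIR615 in HOXC had all 5 (Pol II 29.0), and MIR10B in HOXD had KAP1, Larp7 and Hexim1. These windows share peaks with neighbours, so the values are not particular to the miRNA genes. The folds were those of HOXA10-AS at MIR196B, HOXC5 at MIR615, HOXC6 at MIR196A2 and HOXD4 at MIR10B. At MIR196A1 all but the Pol II fold were those of HOXB7. The mature sequences, from RefSeq (GRCh38.p14), are printed with the seed (bases 2 to 8) in capitals. miR-196a and miR-196b share a seed, while the windows at their 3 genes differ in Pol II. miR-196a-5p and miR-196b-5p differ at A12C, counted from 1 at the 5′ end, with the base of miR-196a first.
miR-196a-5p: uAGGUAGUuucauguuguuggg
miR-196b-5p: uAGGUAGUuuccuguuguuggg
miR-615-3p: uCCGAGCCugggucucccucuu

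The genes beyond the cluster ends were mixed, and most had all 5 factors, as had 59.7% of all coding promoters. EVX1 and EVX2, homeobox genes beside HOXA and HOXD, had all 5 factors with Pol II folds of 6.20 and 5.80. SKAP2, on the anterior side of HOXA, and CALCOCO1, beside HOXC, had none, and SMUG1 and CBX5 had 2 each. Between HOXB13 and the Pol II-free stretch, PRAC1 had 2 factors, Larp7 and Hexim1, and PRAC2 had Cdk9 besides them. SKAP1, TTLL6, LNPK and MTX2 had all 5, as had SNX10, HIBADH, CALCOCO2, ATP5MC2 and HNRNPA3. SNX11 had 3.

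The HOX promoters that lacked a factor at the annotated 5′ end had low CpG content there. HOX windows had a median CpG observed over expected of 0.654 and a GC content of 58.6%, where all coding windows had 0.612 and 55.0%. All coding windows were ranked by this ratio and cut into 5 equal bins. The lowest bin held no HOX promoter, and 4.59% of its promoters had all 5 factors. In the next bin they lay at 6 of 11 HOX promoters, against 39.2% of all promoters there. In the upper bins they lay at 10 of 10 (73.8% of all), 11 of 11 (85.6% of all) and 7 of 7 (95.4% of all). The 5 HOX members that lacked a factor were all in the second lowest bin, with ratios of 0.382 at HOXC6, 0.383 at HOXB6, 0.400 at HOXB3, 0.428 at HOXC4 and 0.498 at HOXA10. HOXB1 at 0.372, HOXB13 at 0.454 and HOXB2 at 0.468 were as low and had all 5 factors. HOXC8 at 0.508, HOXD4 at 0.509 and HOXA9 at 0.528, in the same bin, also had all 5. These ratios describe the 5′ ends alone. HOXA10 and HOXC4 had all 5 factors at canonical starts 5941 and 36904 bp away, where CpG content was not computed. The part of CpG content in the occupancy was not tested.

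**Figure D4:**
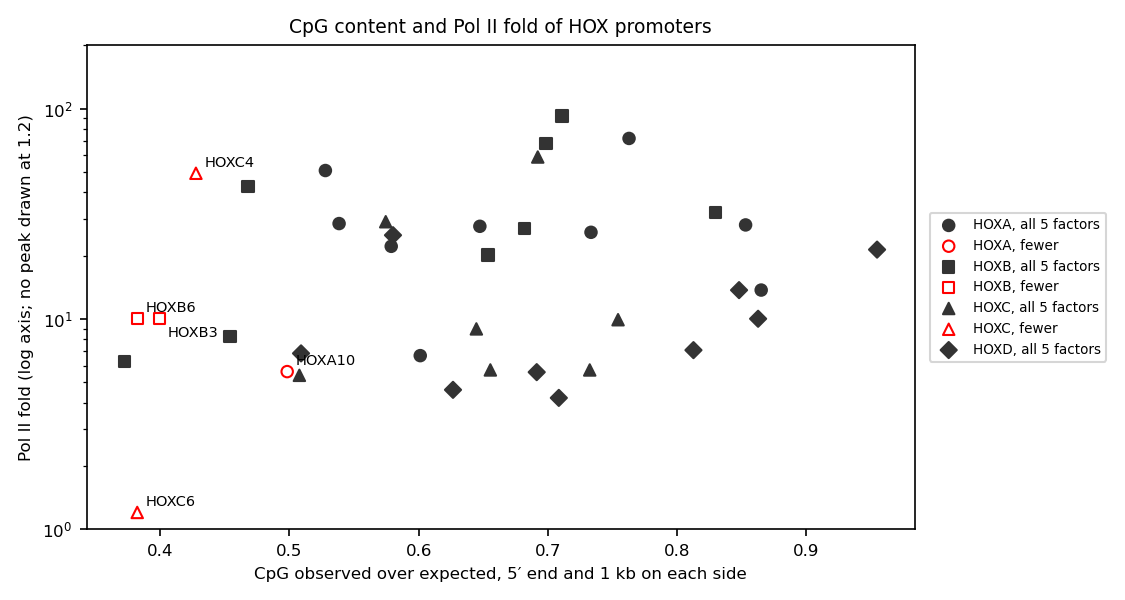
Each point is the promoter of 1 HOX gene named in the text, with CpG observed over expected in the 5′ end and 1 kb on each side on the horizontal axis and the Pol II fold on a log vertical axis. Open red symbols are the members that lack a factor at the annotated 5′ end, HOXB3, HOXB6, HOXC6, HOXA10 and HOXC4, at ratios up to 0.498. HOXA10 and HOXC4 had all 5 factors at their canonical starts, which are not drawn.

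Motifs were searched on both strands of the same windows. The CTCF core motif was in 0 of 39 HOX windows and in 6.26% of all coding windows. TATAAA was in 28 of 39 (71.8%) against 52.1%, and TAATTA, the core that homeodomains bind, in 11 of 39 (28.2%) against 29.7%. Within the 4 clusters the CTCF core occurred 6 times, 2 of them under peaks of all 5 factors (near HOXB7 and near HOXC11) and 2 under none. A match describes letters only, and its absence says nothing of the factor.

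Genes of proteins that work with HOX factors or on the clusters were also occupied for the most part, where 59.7% of all coding promoters had all 5 factors. All 5 factors lay at 8 of 9 TALE cofactor genes, the PBX, MEIS and PKNOX partners of HOX proteins. They lay at 17 of 18 Polycomb genes, with none of the factors at EED, and at 12 of 13 genes of the trithorax group with CTCF and RAD21, where RBBP5 lacked KAP1 and Cdk9. Of the ParaHox and Hox-like genes 10 of 13 had all 5. Pol II was at 100.2 at CDX2 and 8.33 at CDX1, both regulators of intestinal identity. Other homeobox genes had all 5 factors at 38 of 43, or 88.4%, close to the 87.2% of the HOX genes. With peaks of −log10 q of at least 5, all 5 lay at 0 of 9 TALE, 0 of 13 ParaHox and Hox-like, 3 of 18 Polycomb, 1 of 43 other homeobox and 6 of 13 trithorax and CTCF genes, where the general share was 9.16%. The median Pol II fold was 52.6 for Polycomb, 65.0 for trithorax and CTCF and 35.6 for TALE genes, above the 17.0 of HOX, but 8.58 for ParaHox and Hox-like genes and 8.87 for other homeobox genes.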

How the data were processed

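ChIP-seq peak lists of 5 libraries of HCT116 cells were used, 1 library per antibody; each list belongs to 1 sample. The submitters' processing notes name Bowtie 1.1, MACS2 (without a version) and hg19. Control, thresholds and depth: not given in the sources used here. The fold is a ratio, enrichment over background, deposited by the authors. The −log10 p and −log10 q are those the authors deposited. The score the authors deposited was not used. The Pol II list also gives the summit of each peak as deposited.

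Genes came from GENCODE release 44 on GRCh37. A promoter was the 5′ end and 1 kb on each side, and an overlap of at least 1 bp counted. Shares carry exact 95% binomial intervals. With no replicates no test across genes was run. The HOX members, the gene lists and the motifs were chosen with earlier results of these data known. All members entered the counts, but 1 HOX gene and 1 cofactor gene are not reported here by name. Values are given in full for the other members of the 2 clusters with the most Pol II promoters and for the member with the highest KAP1 fold in each other cluster. The CTCF core motif was a fixed string of letters and undefined bases. Sequences were taken from the peaks of the named members with the highest Pol II fold and from the longest stretch, outside exons, and no exon-free window was found for HOXA11 and HOXD3. The HOXB3 and HOXB6 window was chosen after its values were seen. Alternatives were a −log10 q of at least 5, 20000 peaks per list, windows of 500 bp and 2 kb, all or canonical transcript starts, peaks cut to 250 bp on each side of their middle, and gaps of 2 and 10 kb. The counting was tested on simulated peaks. Python 3.11.15, numpy 2.4.6, scipy 1.17.1 and matplotlib 3.10.9 were used.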

Additional observations from a re-analysis of the deposited data

How the results depend on the processing

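Of 87 recomputed values for the counts over all HOX genes, the classes and the antisense lncRNAs, 70 stayed within 1.5 times and 17 moved; the strength of a peak was the choice that moved most of them. Under a −log10 q minimum of 5, all 5 factors lay at 4 HOX promoters, Cdk9 at 8 and KAP1 at 10, 1 had no factor, all 5 lay at 1 anterior, 1 central and 2 posterior promoters and at 3 antisense lncRNAs. With 20000 peaks per list, Pol II lay at 23 and all 5 at 11 HOX promoters, 4 had no factor, and all 5 lay at 2 anterior, 6 central and 3 posterior promoters and at 5 antisense lncRNAs. With a window of 500 bp 1 HOX promoter had no factor, and with peaks cut to 250 bp on each side of their middle all 5 lay at 7 central promoters. Of 376 values for single genes and cluster descriptions 111 moved. No paired analysis was possible because each antibody has 1 library. Depth is unknown, so a missing peak does not show that a factor was absent.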
